A study of Homo sapiens with 12 samples.

Results

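GAS5 and 9 further transcripts of the SNHG series (SNHG1, SNHG3, SNHG5, SNHG6, SNHG7, SNHG8, SNHG12, SNHG15 and SNHG16) are long noncoding RNAs that carry small nucleolar RNAs (snoRNAs) in their introns. They were followed here in a T-cell acute lymphoblastic leukemia line treated with a glucocorticoid. Members were all probe sets whose platform symbol named 1 of these 10 genes, alone or beside snoRNA symbols. This gave 18 of the 54675 probe sets on the array, and all 18 passed the filter on low values. Most of them, 17, listed at least 1 snoRNA symbol beside the host. A probe set was tested where its log2 reached 4 on at least 3 arrays, which left 23265 probe sets. The brightest tested probe set stood for its gene, so that 9956 genes had 1 value each.

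Splicing releases the introns of a host transcript, and exonucleases trim them to the mature snoRNA. Box C/D snoRNAs (SNORD) guide ribose methylation of ribosomal and spliceosomal RNA, and box H/ACA snoRNAs (SNORA) guide its pseudouridylation. The spliced exons of many hosts code for no protein of note. Several hosts, GAS5 among them, begin with a terminal oligopyrimidine (TOP) tract, a C followed by a run of pyrimidines that ties translation to mTOR signalling, and are degraded on ribosomes by nonsense-mediated decay. GAS5 was found as a transcript that accumulates in growth-arrested cells. A hairpin of its RNA resembles a glucocorticoid response element and can bind the DNA-binding domain of the glucocorticoid receptor.

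The cells were CCRF-CEM-C7H2, a glucocorticoid-sensitive clonal line of the leukemia line CCRF-CEM. Cultures were exposed to the synthetic glucocorticoid dexamethasone at 100 nM or to the carrier alone, ethanol at 0.1%, for 6 h or 24 h. Each of these 4 groups held 3 Affymetrix HG-U133 Plus 2.0 arrays, 1 per independent experiment, with the experiments numbered 0, 1 and 3 at 6 h and 1, 2 and 3 at 24 h. All values are log2 expression values, errors with ± are limma's standard errors of a log2 difference (n = 3 arrays per group), and adjusted p values are those of limma after Benjamini-Hochberg adjustment over all tested probe sets. Rises and falls are called at an adjusted p under 0.05.

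Of the 10 hosts, 6 lie on chromosomes 1 (GAS5, SNHG3 and SNHG12), 4 (SNHG8), 6 (SNHG5) and 7 (SNHG15), and the others on 8 (SNHG6), 9 (SNHG7), 11 (SNHG1) and 17 (SNHG16). GAS5 spans chr1:173863901-173869045 on GRCh38.p14 and holds 11 snoRNA genes of the RefSeq table, 10 of the box C/D and 1 of the box H/ACA class. SNHG1 holds 9, of which 8 carry a SNORD name. SNHG16 holds 3 and SNHG5 holds 2 box C/D genes, and SNHG6 holds 1. SNHG3 and SNHG7 hold 2 box H/ACA genes each, SNHG8 and SNHG15 hold 1 each, and SNHG12 holds 3 box H/ACA genes and 1 box C/D gene. The spans of 5 hosts overlap protein-coding genes, namely GAS5 with ZBTB37, SNHG3 with RCC1, SNHG6 with MCMDC2, SNHG7 with DIPK1B and SNHG12 with TRNAU1AP. Where the probes lie within these spans was not analysed here.

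The starts of 8 hosts were matched in RefSeq's table of GRCh38.p14 promoters, and SNHG6 and SNHG15 were not matched. The bases around these starts are shown so that the hosts that fell and the one that rose at 24 h can be set side by side. A TOP tract would lie there only where the transcript begins at the start in that table. Each line runs 5′ to 3′ from 50 bases before to 50 bases after the start in that table. For SNHG12 this start lies inside the RefSeq span of the gene, whose upstream edge is at 28582983. For the other matched hosts the start is at that edge. Capitals mark the first stretch of a C and at least 4 further C or T bases whose C lies within 10 bases of the start. In SNHG7 the stretch is cut at the edge of that window, since the bases just before the capitals are C or T as well.
SNHG5 is the host that rose at 24 h, at chr6:85678684-85678783 on the minus strand.
SNHG5: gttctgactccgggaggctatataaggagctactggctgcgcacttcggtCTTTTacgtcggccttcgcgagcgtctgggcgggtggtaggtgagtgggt
SNHG12, at chr1:28581824-28581923 on the minus strand, SNHG16, at chr17:76557714-76557813 on the plus strand, SNHG7, at chr9:136728135-136728234 on the minus strand, and SNHG8, at chr4:118278712-118278811 on the plus strand, are hosts that fell and have a marked run.
SNHG12: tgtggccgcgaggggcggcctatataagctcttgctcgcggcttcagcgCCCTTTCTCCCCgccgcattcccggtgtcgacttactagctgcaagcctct
SNHG16: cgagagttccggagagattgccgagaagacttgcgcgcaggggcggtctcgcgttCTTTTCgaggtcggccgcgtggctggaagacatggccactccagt
SNHG7: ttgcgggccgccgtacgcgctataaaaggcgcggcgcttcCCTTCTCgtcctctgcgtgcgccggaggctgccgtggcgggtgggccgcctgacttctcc
SNHG8: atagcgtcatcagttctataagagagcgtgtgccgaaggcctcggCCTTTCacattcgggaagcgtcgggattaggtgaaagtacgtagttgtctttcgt
GAS5, at chr1:173868996-173869095 on the minus strand, SNHG1, at chr11:62855836-62855935 on the minus strand, and SNHG3, at chr1:28505893-28505992 on the plus strand, are hosts that fell and have no such run in that window. GAS5 was described above as beginning with a TOP tract. Whether its start in that table is the start of the transcripts with that tract was not analysed.
GAS5: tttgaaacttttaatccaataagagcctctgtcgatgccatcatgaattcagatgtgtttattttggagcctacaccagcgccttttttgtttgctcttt
SNHG1: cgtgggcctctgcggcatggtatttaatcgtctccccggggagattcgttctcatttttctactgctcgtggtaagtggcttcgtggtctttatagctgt
SNHG3: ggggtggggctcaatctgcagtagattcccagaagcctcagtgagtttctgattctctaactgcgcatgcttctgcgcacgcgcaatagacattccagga

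The run, searched on the strand that reads as the RNA, was found in 5 of the 8 matched hosts and in 33.5% of all 35116 promoters. It was present in SNHG5, which rose, as well as in 4 hosts that fell, and it was the longest in SNHG12, with 12 bases. Over the whole window of 300 bases and on both strands, the hexamer CACGTG occurred in SNHG7 alone of the 8 and in 7.26% of all promoters. TATAAA occurred in SNHG1 and SNHG7 and in 11.5% of all promoters. The glucocorticoid response element was searched as AGAACA, any 3 bases, TGTTCT, and AGAACA also alone. The full element occurred in 0 of the 8 and in 0.00285% of all promoters, and AGAACA in 0 of the 8 and in 14.8%. An absent match says only that these letters are not in this window.

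The arrays were alike in signal. The share of probe sets at a log2 of 4 or more was 41.2 to 42% (22503 to 22941 per array), and arrays of 1 group correlated at a Pearson's r of 0.9969 or more. Of 10 T-lineage markers 9 were above 4 on all 12 arrays, and CD2 was below 4 on all. At 24 h 4 of the 9 rose with dexamethasone and 3 fell, beside 23.9% and 28.2% of all genes. The largest fall was in NOTCH1 (-1.67 ± 0.16) and the largest rise in CD7 (0.66 ± 0.15). On the spike scale described below 0 rose and 3 fell, where 47.1% of all genes were lower. All 5 myeloid and both measurable erythroid markers were below 4 on all arrays. Of 4 stromal markers COL1A1 was above 4 on all arrays, with group means of 5.86 to 6.38, and 3 were below 4 on all. Of 4 B-cell markers on the array CD79A and CD79B were above 4 and PAX5 and MS4A1 below 4 on all arrays. Their summed log2 was 24.4 to 25.0 with dexamethasone at 24 h against 22.7 to 23.0 with ethanol. At that time CD79A rose (1.55 ± 0.18), and CD79B did not pass the test (0.25 ± 0.17, adjusted p = 0.256). The part of these marker differences in the results was not tested. The receptor gene NR3C1 (1.95 ± 0.09 at 24 h) and its target FKBP5 (3.13 ± 0.12) rose, and TSC22D3, which encodes the target GILZ, rose from background by at least 7.49 at 6 h and 8.71 at 24 h on the log2 scale. At 6 h the scan codes put each treatment in a batch of its own, so that batch and treatment cannot be told apart there, while all arrays of 24 h share 1 batch. Signals of the poly-A spike controls exceeded those in ethanol by 0.47 (6 h) and 0.34 (24 h). Values scaled to them are given as values on the spike scale where they differ in direction or call; on that scale the median of all genes was -0.47 at 6 h and -0.36 at 24 h.

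After 24 h of dexamethasone 8 of the 10 host genes fell, SNHG5 rose, and SNHG6 did not pass the test. Of all 9956 genes 28.2% fell and 23.9% rose at this time. The median log2 difference was -1.16 over the 10 hosts and -0.02 over all genes. The falls ran from -0.59 in SNHG1 to -1.53 in SNHG15, or to 66.4% and 34.6% of the control signal. In each of the 8 falling hosts the 3 dexamethasone arrays lay below all 3 ethanol arrays of 24 h. Such a separation downward was seen in 35.4% of all genes. The same 8 hosts fell with the experiment as a block (32.5% of all genes lower, 28.8% higher) and on the spike scale (47.1% lower), where the median over the hosts was -1.49. Since their groups of 24 h did not overlap, these hosts were by necessity lower in each of the 3 experiments taken alone. In bulk RNA, fewer cells of a kind and less of a transcript per cell cannot be told apart.

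**Figure D1:**
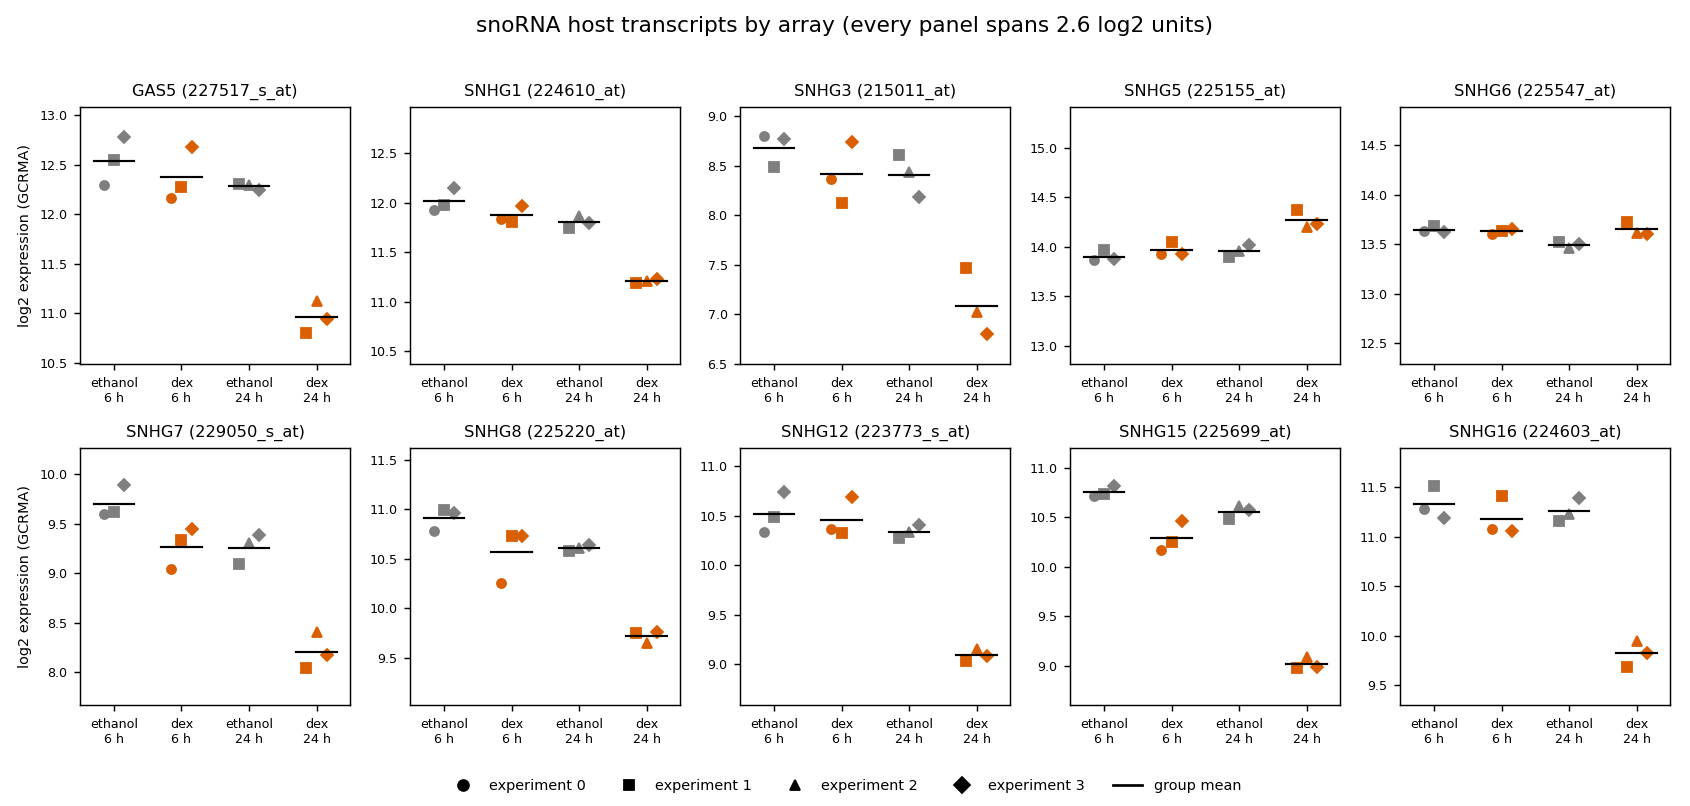
Log2 expression of the 10 snoRNA host transcripts on the 12 arrays, each by the probe set that stands for its gene; points are single arrays, marker shapes the experiments, and lines the means of 3 arrays. The dexamethasone arrays of 24 h lie below all other arrays for the 8 falling hosts, from GAS5 (10.80 to 11.13) to SNHG16 (9.68 to 9.95), and above all others for SNHG5 (14.20 to 14.37).

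GAS5, the host with the most snoRNA genes, was read by 5 probe sets, and they fell into separate responses. By its brightest probe set, 227517_s_at, GAS5 was at 12.30, 12.55 and 12.78 with ethanol and at 12.17, 12.28 and 12.68 with dexamethasone at 6 h. At 24 h it was at 12.31, 12.30 and 12.25 with ethanol and at 10.80, 11.13 and 10.94 with dexamethasone. The 3 groups without late dexamethasone thus overlapped in part, and the treated arrays of 24 h lay more than 1 log2 unit below the lowest of them. The difference was -0.16 ± 0.15 at 6 h (adjusted p = 0.604) and -1.33 ± 0.15 at 24 h (adjusted p = 3.68e-05), which left 39.8% of the control signal. In the order of its levels, ethanol at 6 h (12.54), dexamethasone at 6 h (12.38) and ethanol at 24 h (12.29) did not differ beyond their spread, and dexamethasone at 24 h (10.96) was lowest.

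A second probe set, 228238_at, also fell. It was at 10.46, 10.73 and 10.74 with ethanol and at 8.96, 9.34 and 9.28 with dexamethasone at 24 h, a difference of -1.45 ± 0.17 (adjusted p = 5.42e-05). The 3 others did not pass the test at 24 h. Probe set 224741_x_at, nearly as bright as the first, was at 11.59, 11.69 and 11.55 with ethanol and at 11.56, 11.60 and 11.47 with dexamethasone, so that the groups overlapped (-0.07 ± 0.12, adjusted p = 0.686). Probe set 224841_x_at differed by -0.14 ± 0.13 (adjusted p = 0.392). Probe set 1560402_at, which lists GAS5 alone and no snoRNA, differed by -0.17 ± 0.08 (adjusted p = 0.0919). Its groups did not overlap, with 6.77, 6.79 and 6.67 in ethanol and 6.57, 6.55 and 6.61 in dexamethasone. On the spike scale these 3 probe sets were called lower as well, at -0.41, -0.48 and -0.51 (adjusted p = 0.0423, 0.0247 and 0.0126), against -1.67 and -1.78 for the first 2. With 224741_x_at in place of the brightest probe set, GAS5 would not count among the falling hosts, and 7 would.

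The split can be read inside each array, where all probe sets see the same RNA. The log2 of 227517_s_at minus that of 224741_x_at was 0.79 ± 0.16 (SD, n = 3) with ethanol and 0.79 ± 0.23 with dexamethasone at 6 h. At 24 h it was 0.68 ± 0.05 with ethanol and -0.58 ± 0.16 with dexamethasone. An exact permutation test, two-sided, gave p = 0.1, the lower limit for 3 against 3, and 0.286 after adjustment over 20 comparisons (10 pairs of GAS5 probe sets at 2 times). Against 1560402_at the same probe set moved from 5.54 to 4.38 at 24 h, while 224741_x_at minus 1560402_at was 4.87 and 4.96. The suffix x marks probe sets whose probes may also match other transcripts. Which exons or transcripts of GAS5 each set reads was not analysed here.

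**Figure D2:**
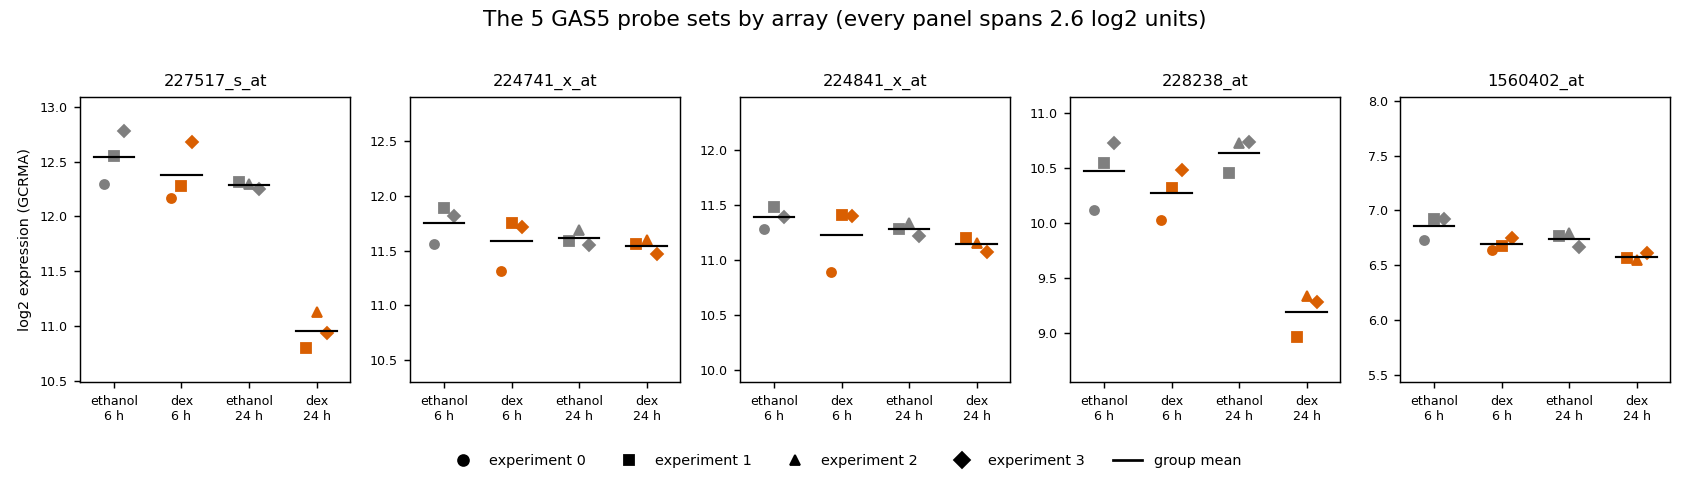
Log2 expression of the 5 GAS5 probe sets on the 12 arrays, with each panel spanning the same 2.6 log2 units; points are arrays and lines group means of 3. With dexamethasone at 24 h 227517_s_at and 228238_at drop to means of 10.96 and 9.19, while 224741_x_at (11.54), 224841_x_at (11.14) and 1560402_at (6.58) stay within 0.2 of their ethanol means.

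Of the other box C/D hosts, SNHG16, which carries the SNORD1 family, fell by both of its probe sets. Probe set 224603_at was at 11.16, 11.23 and 11.39 with ethanol and at 9.68, 9.95 and 9.83 with dexamethasone at 24 h (-1.44 ± 0.12, adjusted p = 5.03e-06). Probe set 224601_at differed by -1.5 ± 0.13 (adjusted p = 4.70e-06). The groups were more than 1 log2 unit apart by either set. SNHG1, which holds a string of box C/D snoRNAs between short exons, had the smallest fall. It was at 11.74, 11.86 and 11.79 with ethanol and at 11.19, 11.21 and 11.23 with dexamethasone (-0.59 ± 0.08, adjusted p = 0.000135), with a spread of 0.02 (SD, n = 3) among the treated arrays.

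SNHG5, the host of the U50 snoRNAs SNORD50A and SNORD50B, went the other way. It was at 13.90, 13.96 and 14.02 with ethanol and at 14.37, 14.20 and 14.23 with dexamethasone at 24 h, and its treated arrays lay above all other 9 arrays. SNHG5 rose by 0.31 ± 0.07 (adjusted p = 0.00539), to 124% of the control signal. Scaled to the spikes, this value was -0.03, with an adjusted p of 0.871. SNHG6, the host of SNORD87, was at 13.52, 13.46 and 13.50 with ethanol and at 13.72, 13.61 and 13.60 with dexamethasone. Its groups of 24 h did not overlap, yet the difference of 0.15 ± 0.06 did not pass the test (adjusted p = 0.069; 0.011 after cyclic loess), and on the spike scale it was -0.19. Upward separation of this kind was seen in 30.5% of all genes. By their mean, SNHG5 and SNHG6 were brighter than 99.46% and 99.3% of all probe sets. Whether signals this high limit the size of a response was not tested.

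All 4 hosts with only box H/ACA snoRNAs fell at 24 h. SNHG15, the host of SNORA9, had the largest fall of the 10 by the probe sets that stand for genes. It was at 10.48, 10.61 and 10.57 with ethanol and at 8.98, 9.09 and 8.99 with dexamethasone (-1.53 ± 0.08, adjusted p = 2e-07). SNHG3, the host of the U17 snoRNAs SNORA73A and SNORA73B, which act in the processing of ribosomal precursor RNA, was more variable. Its values were 8.61, 8.44 and 8.19 with ethanol and 7.47, 7.02 and 6.80 with dexamethasone, still without overlap (-1.32 ± 0.20, adjusted p = 0.000249). SNHG7, the host of SNORA17A and SNORA17B, was at 9.09, 9.31 and 9.39 with ethanol and at 8.04, 8.41 and 8.17 with dexamethasone (-1.06 ± 0.14, adjusted p = 0.000109), and its dimmer probe set differed by -1.01 ± 0.17 (adjusted p = 0.000511). SNHG8, the host of SNORA24, was at 10.58, 10.61 and 10.64 with ethanol and at 9.75, 9.65 and 9.76 with dexamethasone (-0.89 ± 0.12, adjusted p = 0.000118).

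SNHG12, which holds snoRNAs of both classes, was read by 3 probe sets that gave like responses. The brightest, 223773_s_at, was at 10.28, 10.34 and 10.41 with ethanol and at 9.03, 9.16 and 9.08 with dexamethasone at 24 h (-1.25 ± 0.12, adjusted p = 9.72e-06). The others differed by -1.34 ± 0.13 and -1.53 ± 0.19. Over all 18 probe sets 13 fell and 1 rose at 24 h, against 24.5% and 22.8% of all tested probe sets. GAS5 was the only one of the 4 hosts with several probe sets whose sets differed in call at 24 h, and on the spike scale its 5 sets did not differ in call.

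**Figure D3:**
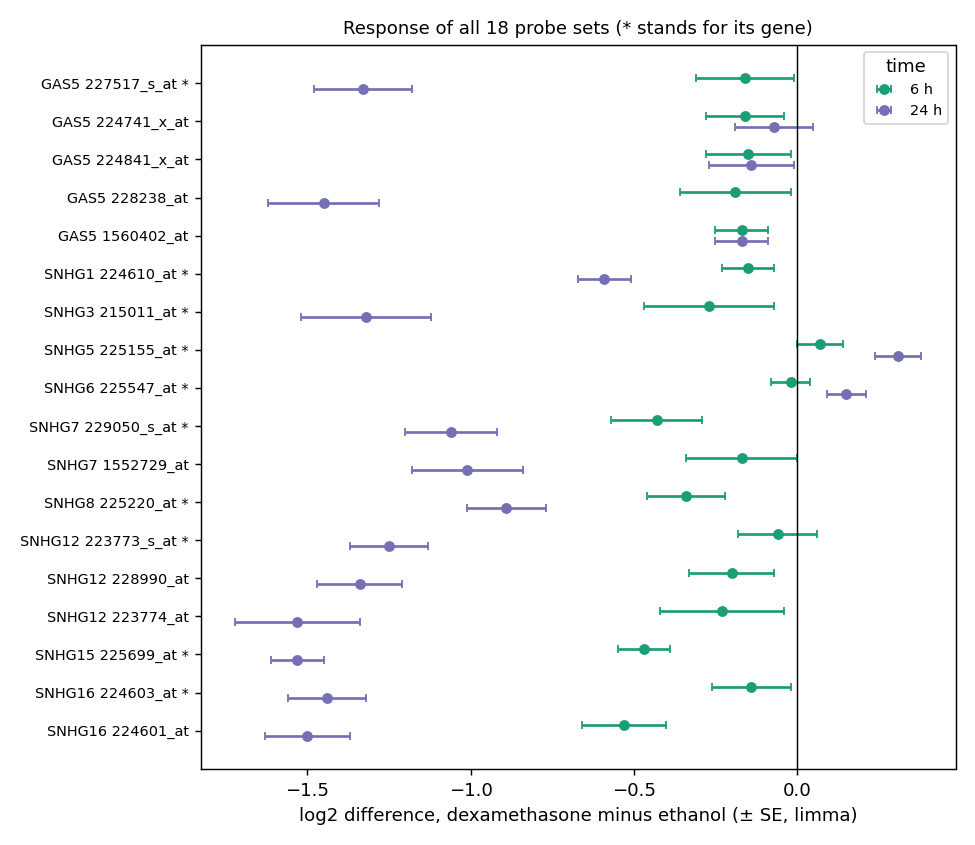
Log2 response to dexamethasone over ethanol at both times for all 18 probe sets; points are limma estimates and bars their standard errors (n = 3 arrays per group), and a star marks the probe set that stands for its gene. At 24 h 13 probe sets lie between -0.59 and -1.53, and the 3 GAS5 probe sets without a fall lie between -0.07 and -0.17.

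At 6 h the hosts had moved little. Only SNHG15 passed the test, with 10.72, 10.74 and 10.82 in ethanol and 10.17, 10.25 and 10.46 in dexamethasone (-0.47 ± 0.08, adjusted p = 0.00856), or 72.3% of the control signal. Its groups did not overlap. With 1 of 10 hosts lower and none higher, the count stood beside 3.78% of all genes lower and 2.72% higher, and the median over the hosts was -0.16. SNHG7 (-0.43 ± 0.14, adjusted p = 0.105) and SNHG8 (-0.34 ± 0.12, adjusted p = 0.136) also had dexamethasone arrays below all ethanol arrays. Without the dexamethasone array of experiment 0 the value of SNHG8 was -0.18 (adjusted p = 0.252). Downward separation at 6 h held for 3 of the 10 hosts and for 14.6% of all genes. SNHG7 and SNHG8 passed with the experiment as a block (adjusted p = 0.0239 and 0.0336), a fit under which 7.55% of all genes fell. The fit on the 6 arrays of 6 h alone did not call SNHG15 (adjusted p = 0.0768).

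The probe sets of SNHG16 differed at 6 h. By 224603_at it was 11.28, 11.51 and 11.19 with ethanol and 11.08, 11.41 and 11.06 with dexamethasone, an overlap (-0.14 ± 0.12, adjusted p = 0.581). By 224601_at it was 10.56, 10.74 and 10.47 against 9.97, 10.27 and 9.91, without overlap (-0.53 ± 0.13, adjusted p = 0.0351). This made 2 of 18 probe sets lower at 6 h, against 3.54% of all tested. For GAS5 all 5 probe sets lay between -0.15 and -0.19 at 6 h, and none passed the test. SNHG5 differed by 0.07 ± 0.07 and SNHG6 by -0.02 ± 0.06. On the spike scale, where all values of 6 h are lower by 0.47, all 10 hosts were called lower, SNHG5 included (-0.40), as were 68% of all genes.

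The response at 24 h was lower than that at 6 h in 8 of the 10 hosts by a test of the difference itself, and in 14.9% of all genes. The difference between the responses was -1.16 ± 0.21 for GAS5 (adjusted p = 0.00311), and it was largest for SNHG16 (-1.3 ± 0.18, adjusted p = 0.000542). SNHG12 (-1.19 ± 0.17), SNHG15 (-1.06 ± 0.12), SNHG3 (-1.05 ± 0.28), SNHG7 (-0.63 ± 0.20), SNHG8 (-0.55 ± 0.17) and SNHG1 (-0.44 ± 0.11) followed. SNHG5 (0.24 ± 0.10, adjusted p = 0.126) and SNHG6 (0.17 ± 0.09, adjusted p = 0.205) did not pass. SNHG5 was called higher after cyclic loess (0.33, adjusted p = 0.0367) and with an intensity trend in the variance (adjusted p = 0.0368). This comparison holds the arrays of 6 h and with them their batches. The calls of SNHG7 and SNHG8 ended when single arrays were left out (highest adjusted p = 0.0968 and 0.0802), for 8 and 10 of the 12 arrays. They also ended without a filter on dim probe sets, after median centring and on the spike scale, where those of SNHG1 and SNHG3 ended too (adjusted p = 0.388 and 0.104). SNHG3 was not called without the filter (adjusted p = 0.0604), nor GAS5 as the mean of its probe sets (-0.46, adjusted p = 0.0567).

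The ethanol controls of both times differed less, in a comparison that crosses scan batches. Time in culture and batch cannot be told apart in it. Limma called 0 of the 10 hosts between 24 h and 6 h, with 5 at an unadjusted p under 0.05, and 0.432% of all genes were called in either direction. The differences ran from -0.44 ± 0.14 in SNHG7 (adjusted p = 0.177) to 0.05 ± 0.07 in SNHG5. The ethanol arrays of 24 h lay below those of 6 h without overlap in 5 hosts (SNHG1, SNHG6, SNHG7, SNHG8 and SNHG15), a separation seen in 13% of all genes. For SNHG7 the control level at 24 h (9.26) thus equalled that with dexamethasone at 6 h (9.27) within the spread of the arrays. With the experiment as a block shared across the times SNHG7 was called (-0.59, adjusted p = 0.0473).

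By a rule set on likeness alone, the genes outside all lists whose values followed GAS5 (227517_s_at) most closely over the 12 arrays were URI1, PDCD5, EIF3B, SLC17A9 and SCCPDH, at a Pearson's r of 0.9904 to 0.9833. The points share the arrays and the treatment, and the values are a description. GAS5 by this probe set varied mostly by its fall at 24 h, so genes picked for following it were set to fall then too. Their differences at 24 h ran from -0.68 ± 0.08 in SCCPDH to -1.63 ± 0.19 in SLC17A9. EIF3B, a subunit of the translation initiation factor eIF3, was at -1.21 ± 0.12. The r values of the hosts likewise rest mostly on the dexamethasone arrays of 24 h. Among the hosts SNHG12 had an r of 0.993 with GAS5, SNHG1 0.981, SNHG7 and SNHG15 0.967, SNHG8 0.952, SNHG16 0.939 and SNHG3 0.926. SNHG6 had -0.252 and SNHG5 -0.923. The other GAS5 probe sets had 0.94 (228238_at), 0.802 (1560402_at), 0.557 (224841_x_at) and 0.483 (224741_x_at).

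Other noncoding snoRNA hosts, a list of 19 of which 7 were measured by probe sets with 1 symbol, also held falling and non-falling members at 24 h. SNHG17 (-1.25 ± 0.12, adjusted p = 8.84e-06), SNHG4 (-1.27 ± 0.15, adjusted p = 5.97e-05) and DANCR (-0.59 ± 0.08, adjusted p = 0.00018) fell. SNHG4 was dim, with means of 6.19 in ethanol and 4.92 in dexamethasone, near the filter level of 4. The value of SNHG32 was 0.29 ± 0.11 (adjusted p = 0.0583, or 0.00888 with the experiment as a block) and -0.05 on the spike scale. The values of EPB41L4A-AS1, SNHG19 and ZFAS1 were -0.25, -0.04 and -0.02, and none passed. EPB41L4A-AS1 was called lower with the experiment as a block (adjusted p = 0.0389) and on the spike scale (-0.59, adjusted p = 0.00442). On that scale 4 of the 7 were lower, beside 47.1% of all genes, and the median was -0.59. The list had a median of -0.25 at 24 h. At 6 h limma called 0 of the 7, with 2 at an unadjusted p under 0.05. The fit with a block called SNHG4 at that time (-0.51, adjusted p = 0.041). Scaling to the spikes made all 7 lower, as it did 68% of all genes.

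Among 21 measured protein-coding snoRNA hosts 12 fell and 1, AP1G1, rose at 24 h (median -0.43; 15 lower and 0 higher on the spike scale). The 4 with the smallest p were WDR43, which acts in making the small ribosomal subunit (-1.64 ± 0.09), HSPA9, the mitochondrial HSP70 chaperone (-1.02 ± 0.09), NCL, which encodes nucleolin (-0.84 ± 0.08), and NOP58, a core protein of box C/D particles (-0.77 ± 0.08). The ribosomal protein genes RPL3, RPL12, RPL23A, RPL32, RPS3 and RPS12 and the elongation factor gene EEF2, named after their values were seen, lay between -0.06 and 0.05 with standard errors of 0.06 to 0.08. Most probe sets of such hosts list snoRNA symbols and are not named. Of 97 tested probe sets that list a snoRNA beside a gene that is no member, 39.2% fell and 6.19% rose at 24 h (median -0.09). Of 9 tested probe sets that list snoRNA symbols alone, 6 fell and none rose (median -0.61; 0 at 6 h).

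Transcripts for the core proteins of snoRNA particles were measured for 6 of 8 genes. All 6 fell at 24 h (median -0.78), with GAR1 (-1.46 ± 0.07) and NHP2 (-1.24 ± 0.10) of the box H/ACA particle and FBL, the methyltransferase fibrillarin (-0.79 ± 0.09), and NOP58 of the box C/D particle. Of 12 assembly factors 8 fell and 1, TGS1, rose (median -0.82; 11 lower and 0 higher on the spike scale), while PHAX (-0.33), ZNHIT3 (-0.06) and PIH1D1 (-0.03) did not pass. NAF1, a box H/ACA assembly factor, differed by -1.62 ± 0.11 and its partner SHQ1 by -1.15 ± 0.09. NOLC1, a nucleolar chaperone of snoRNA particles, differed by -1.55 ± 0.11 and NUFIP1, which joins box C/D assembly, by -1.21 ± 0.09. At 6 h GAR1 fell in the core list (1 of 6, or 3 with the experiment as a block). The assembly factors NUFIP1 and ZNHIT6 (2 of 12) also fell at that time, with none higher. Of all genes 3.78% were lower at 6 h, or 7.55% with the experiment as a block.

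Genes of nonsense-mediated decay, the pathway that degrades many spliced host transcripts, went both ways at 24 h, with 3 of 12 higher and 4 lower (median -0.25). The exonuclease gene XRN1 (0.77 ± 0.11) and the decapping enzyme gene DCP2 (0.70 ± 0.10; adjusted p = 0.068 on the spike scale) rose, as did PNRC2 (0.59), and SMG5 (-0.71 ± 0.11) and RBM8A (-0.57 ± 0.08; adjusted p = 0.421 as the mean of its probe sets) fell, as did SMG6 (-1.12) and MAGOHB (-0.44). On the spike scale 1 was higher and 9 lower, and with the experiment as a block 3 were higher and 7 lower. Of 19 genes that act on the translation of TOP transcripts 6 rose and 8 fell (median -0.19; 1 and 11 on the spike scale). DDIT4, an inhibitor of mTOR complex 1, rose by 2.74 ± 0.18. EIF4EBP1, a repressor of cap-dependent translation (-1.75 ± 0.16), and LARP1 (-1.01 ± 0.09) and LARP4 (-0.68 ± 0.07), proteins that bind and stabilise messenger RNA, fell, LARP1 being the one that binds the TOP tract. The counts of all related lists at this time stand beside 28.2% of all genes lower and 23.9% higher in the main fit. On the spike scale 47.1% of all genes were lower. With the experiment as a block 32.5% were lower and 28.8% higher.

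**Figure D4:**
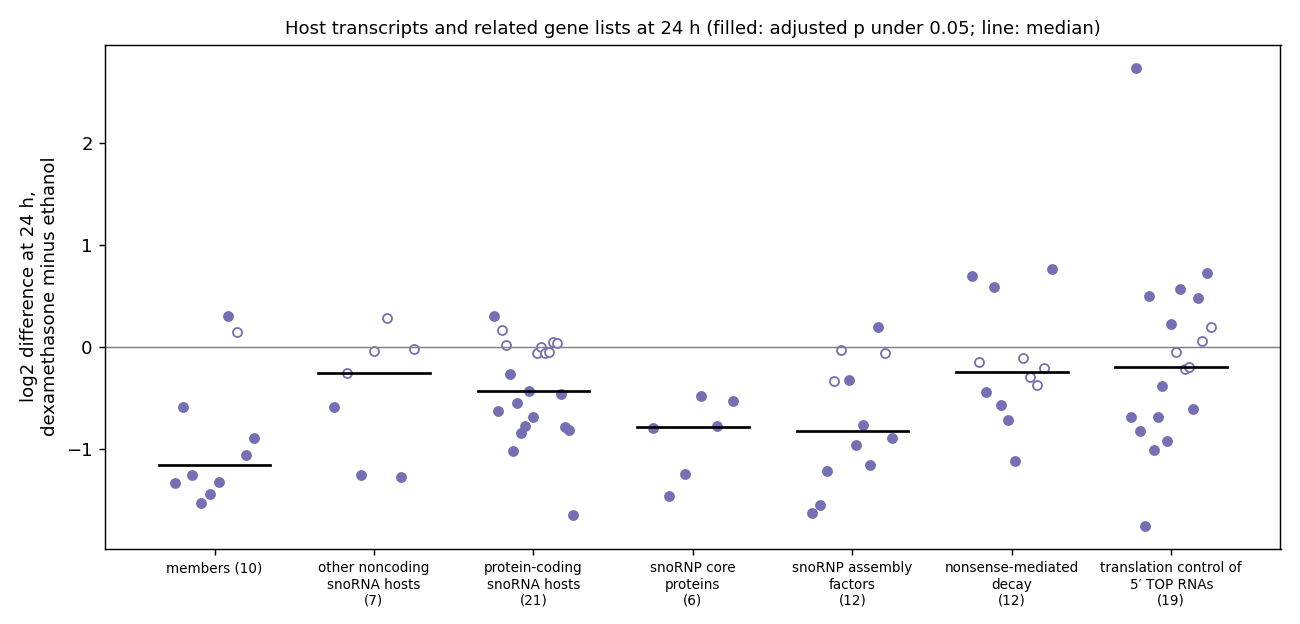
Log2 difference of dexamethasone minus ethanol at 24 h for the 10 members and for the measured genes of 6 related lists; each point is a gene, filled points have an adjusted p under 0.05, and black lines are medians. The median is -1.16 for the members, -0.25 for the other noncoding hosts, -0.78 for the core proteins and -0.19 for the genes of TOP translation control.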

How the data were processed

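RNA of all 12 samples was read on Affymetrix HG-U133 Plus 2.0 arrays. The authors deposited log2 expression values per probe set, and the submitters' processing notes name GCRMA and R 2.6, without settings. Array medians were 3.01 to 3.12. Of 54675 probe sets 62 were controls. By the platform annotation 41097 had 1 symbol, 1801 several and 11777 none, with symbols updated through Entrez numbers to the GRCh38.p14 RefSeq table.

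Limma 3.58.1 (R 4.3.3) fitted group means over all 12 arrays with no block, leaving 8 residual degrees of freedom. This fit was checked on simulated data with independent arrays and few changed probe sets. The check does not cover arrays paired by experiment or changes in many probe sets. Limma's p values rest on the scatter between experiments in a single line. Experiment numbers pair the samples: deviations from the group means had an r of 0.417, 0.627 and 0.609 between same-numbered arrays of 6 h, and for 24 h the values were 0.286, 0.238 and 0.424. The members, lists and tests were chosen with earlier results of these data known. All members were named, with up to 4 genes per list by smallest p at 24 h and the 5 genes most like GAS5; others, in small counts and among the ribosomal protein genes, were named after their values were seen. For TSC22D3, below 4 in ethanol, the log2 difference is a bound taken against 4. Alternatives were a block for the experiment (nested in time or shared), filters, median centring, cyclic loess, scaling to the 24 poly-A spike probe sets, a variance trend, fewer arrays, other gene summaries and leaving out each array.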

Additional observations from a re-analysis of the deposited data

Results flagged for a closer look

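The response to dexamethasone differed between 6 h and 24 h, by a test of the difference itself, in 8 of the 10 hosts. All 8 were lower at 24 h, as were 14.9% of all genes. The log2 response at 24 h minus that at 6 h was -1.16 for GAS5, -0.44 for SNHG1, -1.05 for SNHG3, -0.63 for SNHG7, -0.55 for SNHG8, -1.19 for SNHG12, -1.06 for SNHG15 and -1.3 for SNHG16 (limma adjusted p of 0.0421 or less). Groups of 3 arrays were too small for a search for single arrays that stand apart.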

How the results depend on the processing

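At 24 h 8 hosts fell and 1 rose. The 8 falls were called under all alternatives except the second-brightest GAS5 probe set, which left 7. On the spike scale 0 rose, and 2 rose without a filter on dim probe sets, after cyclic loess or with an intensity trend. Leaving out any 1 array changed neither count. Of 23265 tested probe sets 5693 fell and 5304 rose in the main fit, and 10064 and 2227 on the spike scale. After cyclic loess 5442 fell and 5743 rose, and with the trend 5811 and 5404. Without the filter 5275 fell and 4909 rose of 54613. At 6 h 1 host was called, as lower. The count was 3 with either form of the replicate block, 10 on the spike scale and 0 with only the arrays of the groups compared. It stayed at 1 whichever array was left out. Of 23265 probe sets 824 were lower in the main fit, 1746 with the nested and 1299 with the shared block. On the spike scale 15132 were lower, and with only the arrays compared 204. For the difference of the responses 8 hosts were called, all lower. The count was 5 without the filter, 4 on the spike scale, 6 after median centring and 7 by the mean of a gene's probe sets. It was 9 after cyclic loess or with an intensity trend, which added SNHG5 as higher, and 6 to 8 when single arrays were left out. Of 23265 probe sets 2722 were lower in the main fit, 1017 on the spike scale and 2103 after median centring. After cyclic loess 2585 were lower, and with the trend 2919. Without the filter 2275 of 54613 were lower, and 1832 of 14038 by mean values. Between the ethanol groups the count was 0, and 1 with the replicate block shared across the times. No array left out changed the count of 0. In either direction 113 of 23265 probe sets were called in the main fit and 170 with that block. Apart from SNHG7 and SNHG8 at 6 h and SNHG7 between the ethanol groups, the replicate block changed no call of the 10 hosts. Outside them it added calls for SNHG32 (0.00888) and EPB41L4A-AS1 (0.0389) at 24 h and SNHG4 (0.041) at 6 h. The nested block raised the count of lower protein-coding hosts at 6 h from 2 to 5, and the share of all genes lower from 3.78% to 7.55%. Signs turned on the spike scale for SNHG5 (-0.40 at 6 h, -0.03 at 24 h and -0.09 between the ethanol groups), SNHG6 (-0.19 at 24 h) and SNHG32 (-0.05 at 24 h). By its second-brightest probe set, an alternative chosen after seeing the data, the difference of the GAS5 responses was 0.10. With single arrays left out, small values of 6 h crossed zero for SNHG6 (-0.03 to 0.00) and SNHG12 (-0.17 to 0.05), as did the ethanol difference of SNHG16 (-0.14 to 0.02). The causes of these changes were not tested. The nested block gives no value for the ethanol groups, and the difference of the responses uses all arrays in any case. The precision is limited by 3 arrays a group, and all 18 probe sets averaged above a log2 of 4 in every group.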
